A study of Mus musculus with 8 samples.

Results

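The genes that load peptides onto MHC class I molecules were followed in whole ankle joints of mice on 8 arrays. The set holds B2m, Tap1, Tap2, Tapbp, Erap1 and Nlrc5, chosen by name, and covers every probe set that the platform annotation assigns to one of these genes and to no other. This gave 12 probe sets for 6 genes, of 45101 probe sets and 18193 genes with a probe set of their own. All mice were 5 months old. There were 3 arrays of mice with the hTNFa transgene labelled as functionally null for sphingosine kinase 1 (SphK1 null), 3 of mice with the hTNFa transgene and normal sphingosine kinase 1, and 2 of wild-type mice with normal TNF and normal sphingosine kinase 1. The labels name neither the promoter that drives the transgene nor the altered part of the kinase gene, and they speak of 1 mouse per array without saying whether litters were shared, so the p-values reflect array-to-array spread alone, part of which may be technical. Mice with this transgene serve as an arthritis model, and the design sets them against wild type and asks what the loss of sphingosine kinase 1 alters in the transgenic joint.

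Nearly all nucleated cells show peptides from their own cytosol on MHC class I molecules, where CD8 T cells read them. Proteasomes cut the peptides, the Tap1 and Tap2 transporter carries them into the endoplasmic reticulum, Erap1 trims them there, and tapasin (Tapbp) holds the empty class I molecule beside the transporter until a peptide has bound. B2m is the invariant light chain of the molecule, and Nlrc5 is a transactivator that switches on class I heavy chain, B2m, Tap1 and immunoproteasome genes together; interferon gamma and TNF both raise this gene set in many cell types.

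Probe set values are on a log2 scale, and differences are log2 differences between group means, tested with limma on all 8 arrays. Probe sets with 2 or more arrays above 6.87, the median of all values, were tested, and a probe set was called at a Benjamini-Hochberg adjusted p under 0.05 over the 24115 tested probe sets. Every member gene had at least 1 tested probe set and 9 of the 12 probe sets passed. The other 3 are dim Tap1 probe sets, which read 3.56 to 5.33 on all 8 arrays. In the gene lists below, measured genes are those with a tested probe set of their own.

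Several features of the arrays touch the results. Sphk1 itself, at its tested probe set, read 9.94 to 10.22 on the arrays labelled SphK1 null, 8.28 to 8.65 on the hTNFa arrays and 7.16 and 7.25 in wild type. Its RNA was thus highest on the arrays labelled null. The second Sphk1 probe set did not pass the filter and read 6.33 to 6.68, 6.50 to 6.74, and 6.12 and 6.39 in the same order. The label speaks of function, which RNA level does not measure, so the loss could not be checked. Every direction between the transgenic groups carries that limit. Replicate 1 of the arrays labelled SphK1 null, hTNFa replicate 1 and wild-type replicate 2 carried both Xist, at 11.19 to 13.09, and the Y-linked Eif2s3y, at 6.60 to 9.14. Wild-type replicate 1 and hTNFa replicate 2 read 7.45 and 7.29 for Xist and 8.86 and 8.75 for Eif2s3y. The remaining arrays read 12.89 to 13.16 and 3.46 to 3.81, so sex-linked signal differed within each group. Fits without a wild-type array, or without the 3 arrays that carried both, keep 1 wild-type array. Of the fits that left out 1 array, the one without wild-type replicate 1 had the fewest hTNFa calls over all probe sets. Arrays of a group correlated at 0.962 to 0.985 over tested probe sets, and transgenic with wild-type arrays at 0.862 to 0.916. Markers of joint tissue varied in brightness, with the lubricin gene Prg4 averaging 14.35 to 14.51 and the cartilage matrix gene Comp 13.12 to 13.55 in the 3 groups. Sp7 averaged 8.2 to 8.4, and Scx did not pass the filter. Of the 8 measured, the cartilage gene Acan fell by 1.35 and the collagen gene Col1a1 rose by 0.82 log2 in hTNFa against wild-type joints (limma adjusted p = 0.00019 and 0.000276), and Comp fell by 0.44 in joints labelled SphK1 null (limma adjusted p = 0.0192). The 8 had 1 called higher and 1 lower in hTNFa joints, and 1 and 2 in joints labelled SphK1 null. Shares over all genes were 16.5% and 19.6%, and 19.1% and 23.8%, so these counts are near the background.

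All 9 tested probe sets of the peptide loading genes were higher in hTNFa than in wild-type joints, by 0.45 to 1.51 log2, and 7 of them rose, which covers 5 of the 6 genes. None fell. Across all tested probe sets 33.0% were called in either direction, 16.6% higher and 16.4% lower. The median difference of the 9 was 0.63, against 0.01 over all tested probe sets. The groups did not overlap in 7 of the 9, where 30.6% of all tested probe sets lay wholly above wild type. In joints labelled SphK1 null the same 7 probe sets rose against the same wild-type arrays, with differences of 0.41 to 1.54 over the 9 and a median of 0.72, and the groups did not overlap in 8. There 39.0% of tested probe sets were called in either direction, 18.7% higher and 20.2% lower, and 28.7% lay wholly above wild type. In bulk joint tissue a larger share of cells of a type and more RNA per cell cannot be told apart.

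**Figure D1:**
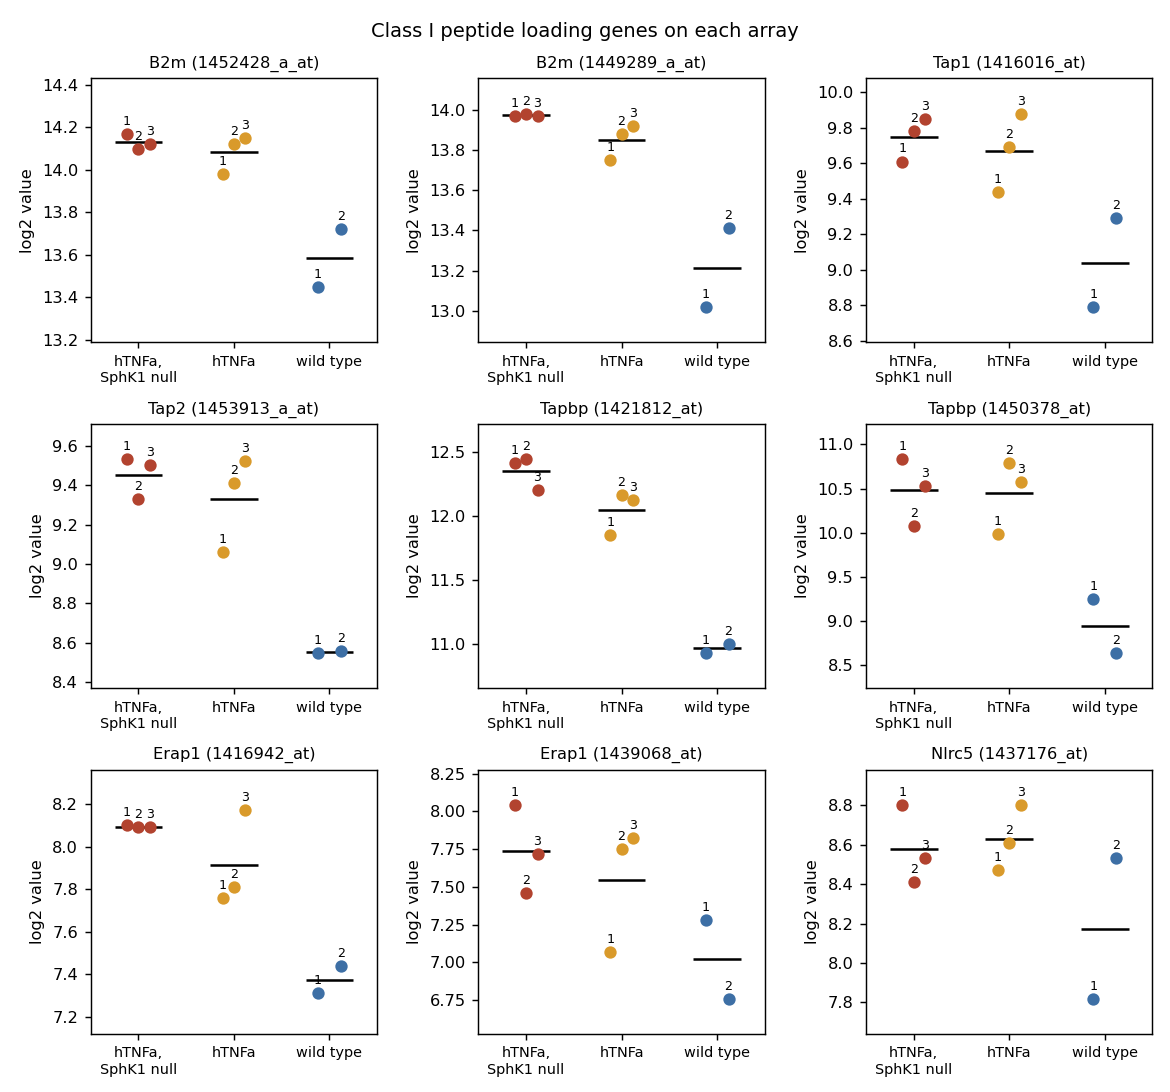
Log2 value of each tested probe set of the peptide loading genes (vertical axis) on each array, with 3 arrays labelled SphK1 null, 3 hTNFa arrays and 2 wild-type arrays; digits give the replicate number, bars the group mean, and each panel has its own vertical range. Tapbp and Tap2 show wild-type arrays far below all transgenic ones, while for Nlrc5 wild-type replicate 2, at 8.53, lies among the transgenic arrays.

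Promoter sequences are shown because 5 of the 6 members rose in both transgenic groups and this gene set is known to be driven through short elements close to the start site. RefSeq windows of GRCm38.p6, from 250 bases before to 50 bases after the start, matched 4 of the 6 members, B2m, Tap1, Tapbp and Erap1. The Tap1 window shares 275 of its 300 bases with that of Psmb9, which is read from the opposite strand. B2m lies at chr2:122147437-122147736, Tap1 at chr17:34187306-34187605, Tapbp at chr17:33919228-33919527 and Erap1 at chr13:74639603-74639902, all on the plus strand. Each is printed 5′ to 3′, and capitals mark matches on either strand to the motifs named after the sequences.
B2m: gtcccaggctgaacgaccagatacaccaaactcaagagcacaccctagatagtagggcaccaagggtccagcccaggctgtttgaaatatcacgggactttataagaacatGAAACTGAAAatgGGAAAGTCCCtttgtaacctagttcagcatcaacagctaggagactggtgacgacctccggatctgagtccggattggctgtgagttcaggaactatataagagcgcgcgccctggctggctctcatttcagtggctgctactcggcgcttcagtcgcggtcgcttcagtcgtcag
Tap1: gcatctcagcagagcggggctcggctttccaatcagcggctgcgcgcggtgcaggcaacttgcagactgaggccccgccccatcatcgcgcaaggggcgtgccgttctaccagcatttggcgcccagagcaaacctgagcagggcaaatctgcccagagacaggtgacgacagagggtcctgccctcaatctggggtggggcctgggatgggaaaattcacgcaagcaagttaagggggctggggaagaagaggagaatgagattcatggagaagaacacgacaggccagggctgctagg
Tapbp: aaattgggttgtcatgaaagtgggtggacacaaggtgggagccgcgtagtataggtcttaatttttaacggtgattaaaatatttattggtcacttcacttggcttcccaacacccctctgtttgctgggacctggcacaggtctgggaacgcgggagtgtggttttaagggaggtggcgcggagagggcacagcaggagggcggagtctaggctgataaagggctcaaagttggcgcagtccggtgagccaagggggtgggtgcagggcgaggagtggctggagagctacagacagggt
Erap1: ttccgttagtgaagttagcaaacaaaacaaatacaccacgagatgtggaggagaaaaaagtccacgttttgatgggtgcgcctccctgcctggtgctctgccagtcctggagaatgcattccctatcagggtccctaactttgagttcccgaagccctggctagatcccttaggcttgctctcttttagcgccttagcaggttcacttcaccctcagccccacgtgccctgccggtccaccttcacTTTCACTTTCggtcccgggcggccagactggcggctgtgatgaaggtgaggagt

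The core of the interferon-stimulated response element was found in the windows of B2m and Erap1, which is 2 of 4, and in 3.44% of all 32851 promoter windows. In B2m it spans positions -139 to -130 from the start on the plus strand, and in Erap1 positions -4 to 6 on the minus strand. An NF-kB motif was found in B2m at positions -126 to -117 on the minus strand, right after the first element and without overlapping it, and in 4.79% of all windows. The gamma-interferon activation site, TTCNNNGAA, had no match in the 4 windows and is in 8.30% of all windows. Tap1 and Tapbp hold none of the 3 motifs in these windows, while Tapbp had the largest difference of the set. A match describes letters and does not show that a factor binds there.

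B2m, the light chain shared by all classical class I molecules, rose at both of its probe sets. The brighter one (1452428_a_at) read 14.17, 14.10 and 14.12 in joints labelled SphK1 null and 13.98, 14.12 and 14.15 in hTNFa joints, against 13.45 and 13.72 in wild-type joints. Every transgenic array lay above both wild-type arrays, and the transgenic groups overlapped. The rise was 0.50 ± 0.09 log2 (SE; 1.41-fold; limma adjusted p = 0.00218) in hTNFa joints and 0.55 ± 0.09 (limma adjusted p = 0.00102) in joints labelled SphK1 null, both against wild type. The second B2m probe set (1449289_a_at) averaged 13.97 ± 0.01 in joints labelled SphK1 null, 13.85 ± 0.09 in hTNFa joints (SD, n = 3 each) and 13.22 ± 0.28 in wild type (SD, n = 2). It rose by 0.64 ± 0.11 in hTNFa joints (limma adjusted p = 0.00168) and by 0.76 ± 0.11 in joints labelled SphK1 null (limma adjusted p = 0.000461). These values stand close to the top of the table, whose highest value is 14.99.

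Tapbp, which encodes tapasin, had the largest differences of the set. Its brighter probe set (1421812_at) read 12.41, 12.44 and 12.20 in joints labelled SphK1 null and 11.85, 12.16 and 12.12 in hTNFa joints, against 10.93 and 11.00 in wild type. The lowest transgenic array was far above the higher wild-type array, and the 2 wild-type arrays lay close together. This is a rise of 1.08 ± 0.12 log2 (2.11-fold; limma adjusted p = 0.000196) in hTNFa joints and of 1.39 ± 0.12 (2.61-fold; limma adjusted p = 3.7e-05) in joints labelled SphK1 null. The second Tapbp probe set (1450378_at) read 10.83, 10.08 and 10.53 in joints labelled SphK1 null and 9.99, 10.79 and 10.57 in hTNFa joints, against 9.25 and 8.64 in wild type. It varied more from array to array, yet the groups did not overlap, and its rise was 1.51 ± 0.28 (2.84-fold; limma adjusted p = 0.0033), with 1.54 ± 0.28 (limma adjusted p = 0.00235) in joints labelled SphK1 null. Between wild-type replicates the probe sets differed in order: replicate 2 was the higher array at the first and the lower at the second.

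Both subunits of the peptide transporter rose. Tap1 (1416016_at) read 9.61, 9.78 and 9.85 in joints labelled SphK1 null and 9.44, 9.69 and 9.88 in hTNFa joints, against 8.79 and 9.29 in wild type. Wild-type replicate 2 came within a small distance of hTNFa replicate 1, although no array crossed. The rise was 0.63 ± 0.18 log2 (1.55-fold; limma adjusted p = 0.0224) in hTNFa joints and 0.71 ± 0.18 (limma adjusted p = 0.0111) in joints labelled SphK1 null. Both Tap1 calls rest on wild-type replicate 1: without it the differences were 0.38 (adjusted p = 0.215) and 0.46 (adjusted p = 0.118). The hTNFa call also ended without hTNFa replicate 2 (adjusted p = 0.0571) or replicate 3 (adjusted p = 0.0777). Tap2 (1453913_a_at) read 9.53, 9.33 and 9.50 in joints labelled SphK1 null and 9.06, 9.41 and 9.52 in hTNFa joints, against 8.55 and 8.56 in wild type. Here the wild-type arrays were nearly equal and all transgenic arrays were above them. Tap2 rose by 0.78 ± 0.15 (1.71-fold; limma adjusted p = 0.00323) in hTNFa joints and by 0.90 ± 0.15 (limma adjusted p = 0.00113) in joints labelled SphK1 null, and kept its call under every alternative tried, with adjusted p up to 0.0282 and 0.0120.

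Erap1, the aminopeptidase that trims peptides to class I length, rose at its brighter probe set only. That probe set (1416942_at) read 8.10, 8.09 and 8.09 in joints labelled SphK1 null and 7.76, 7.81 and 8.17 in hTNFa joints, against 7.31 and 7.44 in wild type. The rise was 0.54 ± 0.14 log2 (1.45-fold; limma adjusted p = 0.0173) in hTNFa joints and 0.72 ± 0.14 (1.65-fold; limma adjusted p = 0.00338) in joints labelled SphK1 null. Its hTNFa call ended without wild-type replicate 1 (adjusted p = 0.122) and without hTNFa replicate 3 (adjusted p = 0.0556). The second Erap1 probe set (1439068_at) read 8.04, 7.46 and 7.72 in joints labelled SphK1 null and 7.07, 7.75 and 7.82 in hTNFa joints, against 7.28 and 6.76 in wild type, so hTNFa replicate 1 lay between the wild-type arrays. Its difference of 0.53 ± 0.26 had almost the same size but missed the threshold (limma adjusted p = 0.165), as did the 0.72 ± 0.26 of joints labelled SphK1 null (limma adjusted p = 0.0570), where the groups did not overlap. Both of these values depend on wild-type replicate 2, without which they were 0.27 and 0.46, and on wild-type replicate 1, without which they were 0.79 and 0.98 (adjusted p = 0.133 and 0.0568). This probe set passed in hTNFa joints without hTNFa replicate 1 (adjusted p = 0.0348) and with array weights (adjusted p = 0.0443), and in joints labelled SphK1 null in 4 alternatives, with adjusted p of 0.0249 to 0.0422.

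Nlrc5, the transactivator of the set, was the 1 gene with no call in either transgenic group. Its probe set (1437176_at) read 8.80, 8.41 and 8.53 in joints labelled SphK1 null and 8.47, 8.61 and 8.80 in hTNFa joints, against 7.82 and 8.53 in wild type. The wild-type arrays differed from each other by more than any transgenic pair, and the higher one lay within the range of the transgenic arrays. The difference was 0.45 ± 0.21 log2 (limma adjusted p = 0.136) for hTNFa joints and 0.41 ± 0.21 (limma adjusted p = 0.163) for joints labelled SphK1 null, with 95% intervals of -0.02 to 0.93 and -0.07 to 0.88. Each value turns on which wild-type array is kept. Without wild-type replicate 1 they were 0.10 and 0.05, and without wild-type replicate 2 they were 0.81 and 0.76. Without all 3 arrays that carried both Xist and Eif2s3y, an alternative chosen after seeing the data, they were 0.89 and 0.65. That alternative also keeps wild-type replicate 1 alone, the lower array here, so it is not independent of the fit without wild-type replicate 2.

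No member differed between the transgenic groups by the test. Over the 9 tested probe sets the arrays labelled SphK1 null differed from the hTNFa arrays by -0.05 to 0.31 log2, with a median of 0.12 against -0.02 over all tested probe sets. Limma called 0 of the 9, and 1 of them had an unadjusted p under 0.05, where 2 of 24115 probe sets (0.00829%) were called and 7.61% had an unadjusted p under 0.05. That 1 was the brighter Tapbp probe set, for which each array labelled SphK1 null lay above each hTNFa array. The difference there was 0.31 ± 0.10 (unadjusted p = 0.0157; limma adjusted p = 0.611), and its adjusted p ranged from 0.241 to 0.999 over the alternatives. The second Tapbp probe set differed by 0.03 ± 0.25. The groups also did not overlap at the second B2m probe set, by 0.12 ± 0.09 (limma adjusted p = 0.773), while 11.2% of all tested probe sets did not overlap between these groups. The 95% intervals of the other members were -0.13 to 0.22 for the brighter B2m probe set, -0.28 to 0.43 for Tap1, -0.17 to 0.42 for Tap2, -0.11 to 0.47 for the brighter Erap1 probe set and -0.47 to 0.38 for Nlrc5, so differences inside these bounds cannot be told from the spread between arrays. In order of group means the arrays labelled SphK1 null came highest, hTNFa next and wild type lowest for 8 of the 9 probe sets, with the transgenic neighbours not separated by the test, and Nlrc5 had hTNFa highest.

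**Figure D2:**
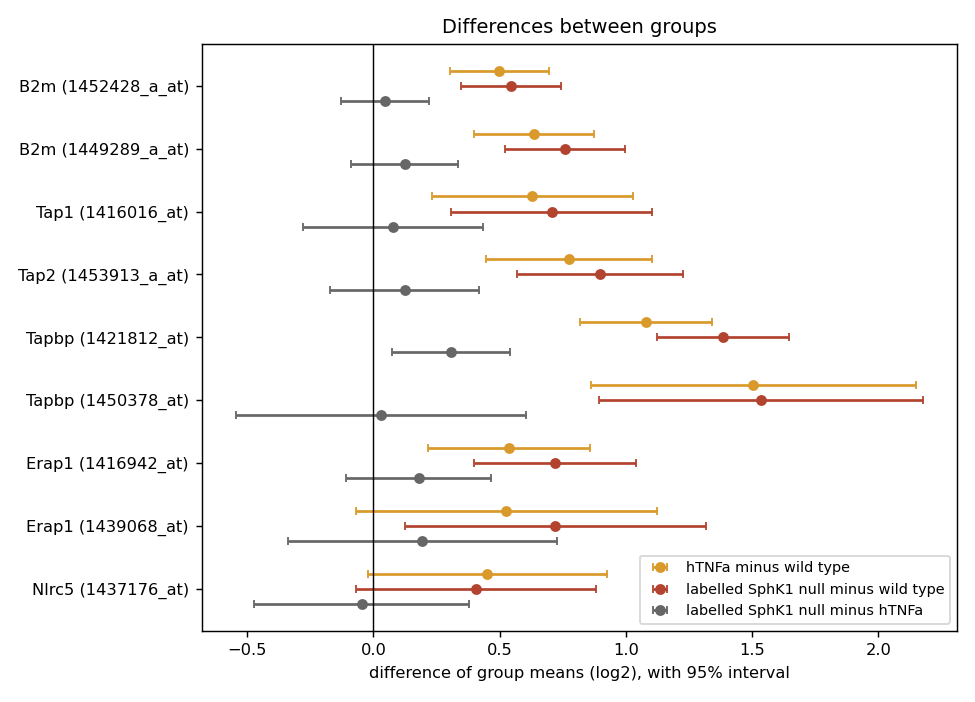
Log2 difference between group means (horizontal axis) with its 95% interval for the 9 tested probe sets, for hTNFa minus wild type, labelled SphK1 null minus wild type and labelled SphK1 null minus hTNFa. The differences against wild type lie between 0.41 and 1.54 and those between the transgenic groups between -0.05 and 0.31; the comparisons share arrays.

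Within the hTNFa group, replicate 1 was the lowest array at 9 of 9 tested probe sets, and replicate 3 the highest at 7. Averaged over the brightest probe set of each of the 6 genes, the level stood 0.82, 0.74 and 0.77 log2 above the wild-type mean on the arrays labelled SphK1 null and 0.48, 0.68 and 0.82 above it on hTNFa replicates 1, 2 and 3. hTNFa replicate 1 also had the highest level of 8 skin genes, 11.57, against 6.34 and 8.67 on the other hTNFa arrays, and the lowest level of 10 macrophage genes of the transgenic arrays, 11.51. The part of skin content in the members' values was not tested beyond a fit with the skin level as a covariate, in which 7 of 9 probe sets were again called in hTNFa and in joints labelled SphK1 null. Wild-type replicate 1 was the lower wild-type array at 7 of the 9 probe sets, all but the second Tapbp and the second Erap1 probe set.

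Pan-leukocyte and macrophage markers were higher in the transgenic joints, as were most of the members, while B cell, muscle and fat markers were not. Over all genes 16.5% were called higher and 19.6% lower in hTNFa joints, and 19.1% and 23.8% in joints labelled SphK1 null. All 8 pan-leukocyte genes rose in hTNFa joints, with Ptprc, which encodes CD45, at 12.46, 12.56 and 12.64, against 10.65 and 11.48 in wild type. The mean level of the 8 genes was 11.66 to 11.79 in joints labelled SphK1 null, 11.49 to 11.69 in hTNFa joints and 9.83 to 10.58 in wild type. Of 10 macrophage genes 9 rose, with mean levels of 11.80 to 12.04, 11.51 to 11.83 and 9.90 to 10.03 in the same 3 groups, and of 6 dendritic cell genes 4 rose, with 8.41 to 8.49, 8.33 to 8.49 and 7.38 to 7.60. Of 9 measured T and NK cell genes 2 rose, Cd4 and the adhesion receptor Cd2, near the share over all genes, and 3 in joints labelled SphK1 null, where 19.1% of all genes were called higher. The list averaged 7.68 to 7.76, 7.48 to 7.86 and 7.09 to 7.59 in the same order of groups. Wild-type replicate 2 had more of these transcripts than replicate 1. The hTNFa T and NK cell count was 0 without hTNFa replicate 3 and 1 without hTNFa replicate 2. Fits that keep 1 wild-type array moved it too. The count was lower in both transgenic groups without wild-type replicate 1. In hTNFa joints it was higher without wild-type replicate 2 or without the 3 arrays that carried both Xist and Eif2s3y. The dendritic cell count in hTNFa joints was lower whichever wild-type array was left out. None of the Cd8a and Cd8b1 probe sets, which would mark CD8 T cells, passed the filter; they read 4.52 to 6.89 on the 8 arrays. All 4 measured B cell genes had negative differences, with a median of -0.51 in hTNFa joints and none called, and Ms4a1 and Cd79b fell in joints labelled SphK1 null (limma adjusted p = 0.0422 and 0.0250). Those B cell counts turn on single arrays. In joints labelled SphK1 null there were 0 without any 1 array of that group and 1 without hTNFa replicate 1 or 3. Without wild-type replicate 1 more were called lower in each group. Without wild-type replicate 2 fewer were called lower in joints labelled SphK1 null. Of 9 neutrophil genes 1 rose, the receptor gene Csf3r, in both groups. Without wild-type replicate 2, which leaves 1 wild-type array, both counts were higher. Other tissue of the joint went down: 9 of 10 skeletal muscle genes fell in hTNFa joints (median -0.98) and 10 in joints labelled SphK1 null (median -1.37), and all 6 measured adipocyte genes fell in both (median -2.42 in joints labelled SphK1 null and -1.93 in hTNFa joints). Of these, Lep and Pck1 passed the filter only through the 2 wild-type arrays, where they are high. The filter thus favoured their falls, which count in the 6 and in the medians. Of 6 endothelial genes 5 fell in hTNFa joints and 2 in joints labelled SphK1 null, the 2 being near the 23.8% of all genes. The hTNFa endothelial count was 2 without hTNFa replicate 1, and 3 without hTNFa replicate 3 or replicate 3 of the arrays labelled SphK1 null. It was also lower without either wild-type array. The part of all these cell types in the members' differences was not tested.

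**Figure D3:**
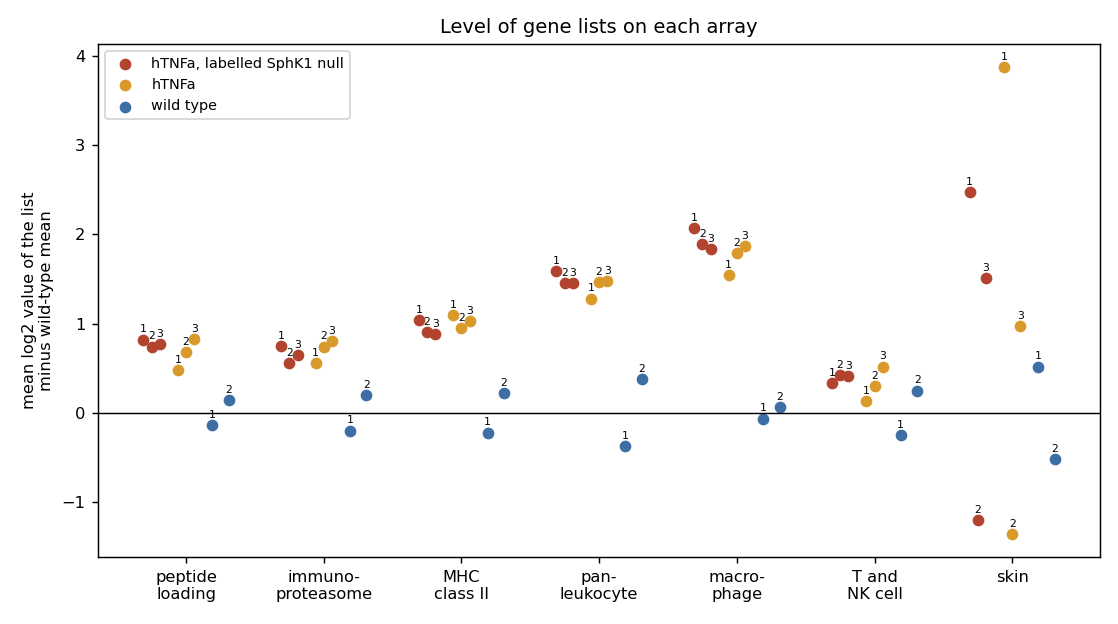
Mean log2 value of each gene list on each array minus the mean of the wild-type arrays (vertical axis), for the 6 peptide loading genes and 6 other lists; points are arrays, digits the replicate number. The peptide loading genes, immunoproteasome, MHC class II, pan-leukocyte and macrophage lists lie above wild type on all 6 transgenic arrays, whereas T and NK cell levels of hTNFa arrays overlap wild type and skin levels scatter within each group.

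The class I heavy chains, which pair with B2m to form the molecule that is loaded, were tested for 5 of 18 listed genes. Probe sets of H2-Q2, H2-T24 and H2-Bl did not pass the filter, at 3.27 to 6.28. H2-K1, H2-D1 and H2-M3 rose in hTNFa joints and the remaining H2-Q10 and H2-T3 did not pass, so the list had 3 higher and 0 lower, with a median of 0.59 log2 against -0.02 over all 12362 genes, each taken at its brightest tested probe set; 16.5% of those genes were called higher and 19.6% lower. H2-K1, a classical class I heavy chain, read 13.72, 14.07 and 14.12 in hTNFa joints, against 13.29 and 13.48 in wild type, a rise of 0.59 ± 0.11 (limma adjusted p = 0.00378). H2-D1, the other classical chain measured, rose by 0.64 ± 0.10 (limma adjusted p = 0.00129) and H2-M3, which presents formylated peptides, by 1.09 ± 0.18 (limma adjusted p = 0.00147). The other 4 tested H2-D1 probe sets rose by 0.68 to 1.01, apart from 1 dim probe set at 0.07 (limma adjusted p = 0.813). Heavy chain genes are near-identical copies of each other, so the gene behind the H2-K1 and H2-D1 signal is uncertain. The same 3 rose in joints labelled SphK1 null, H2-K1 by 0.76 and H2-D1 by 0.78, where 19.1% of genes were called higher and 23.8% lower.

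Genes of the interferon-inducible proteasome, which supplies the peptides, rose with the loading genes. All 4 measured members rose in both transgenic groups. Over all genes 16.5% were called higher in hTNFa joints and 19.1% in joints labelled SphK1 null. In hTNFa joints the catalytic subunits Psmb8, Psmb10 and Psmb9 rose by 0.97 ± 0.16, 0.81 ± 0.14 and 0.71 ± 0.18 log2 and the activator subunit Psme1 by 0.32 ± 0.10 (limma adjusted p = 0.00185, 0.00183, 0.0135 and 0.0320). Without wild-type replicate 1, which leaves 1 wild-type array, the count was lower in each group. Psmb9 and Psmb8 lie next to Tap1 and Tap2 on chromosome 17: in the GRCm38.p6 gene order Psmb9, Tap1, Psmb8 and Tap2 follow each other inside the class II region, with H2-Ob after them. H2-Ob, a class II chain that B cells use, differed by -0.23 ± 0.36 (limma adjusted p = 0.677). Tapbp has other neighbours on the same chromosome. Of the 7 measured there, Wdr46 and B3galt4 rose in hTNFa joints, by 0.65 and 0.47 (limma adjusted p = 0.0181 and 0.0218), and also in joints labelled SphK1 null, by 0.72 and 0.53. Daxx, Zbtb22, Rgl2, Pfdn6 and Rps18 differed by 0.15, 0.00, 0.40, -0.24 and 0.02 in hTNFa joints and did not pass, and Pfdn6 fell by 0.45 in joints labelled SphK1 null (limma adjusted p = 0.0150).

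Chaperones and editors of the endoplasmic reticulum rose in 7 of 9 measured genes of hTNFa joints and 8 of 9 in joints labelled SphK1 null, with none lower. The shares of all genes called higher were 16.5% and 19.1% in these groups. The thiol oxidoreductase Pdia3, a part of the loading complex with tapasin, rose by 0.77 ± 0.09 log2 (limma adjusted p = 0.000354), Pdia6 by 0.63 ± 0.15, the general chaperone Hspa5 by 0.50 ± 0.09 and the tapasin-like editor Tapbpl by 0.49 ± 0.13. Calr, the lectin chaperone of the loading complex, differed by 0.46 ± 0.17 in hTNFa joints (limma adjusted p = 0.0716) and rose by 0.72 in joints labelled SphK1 null (limma adjusted p = 0.00923). Its 2 dimmer probe sets rose in hTNFa joints as well, by 0.58 and 0.57 (limma adjusted p = 0.0447 and 0.0466). Dimmer probe sets of Pdia3 and Hspa5 that did not pass differed by 0.24 and 0.32. The hTNFa count was 4 and 3 without hTNFa replicates 2 and 3, and was also lower without either wild-type array. Cytosolic peptidases, which trim or destroy peptides in the cytosol, had 0 of 7 higher and 2 lower in both transgenic groups, near the 19.6% of all genes called lower in hTNFa joints and the 23.8% in joints labelled SphK1 null. At its brightest probe set Ide fell by 0.77 ± 0.15 in hTNFa joints and Lap3, a leucine aminopeptidase, by 0.41 ± 0.13 (limma adjusted p = 0.00388 and 0.0377). The hTNFa count was 1 without hTNFa replicate 2 or 3 or without replicate 3 of the arrays labelled SphK1 null. It was also lower without either wild-type array, as was the SphK1 null count without wild-type replicate 1. Of the other 4 tested Ide probe sets 1 also fell, by 0.65, and 3 did not pass, with differences of 0.02, -0.08 and 0.21. The list's hTNFa median was 0.00.

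Among factors that work with Nlrc5 or lie upstream of it, more were called higher than lower at the brightest probe set of each gene. Of 8 measured partner and related factors 4 rose and 1 fell in hTNFa joints. Over all genes 16.5% were called higher and 19.6% lower there, and 19.1% and 23.8% in joints labelled SphK1 null. Ciita, the class II counterpart of Nlrc5, read 7.33, 7.52 and 7.57 in hTNFa joints, against 6.67 and 6.45 in wild type, and rose by 0.91 ± 0.16 log2 (limma adjusted p = 0.00257). Nfya, which binds the CCAAT box, rose by 0.75 ± 0.15, Creb1 by 0.69 ± 0.12 and Rfx5 by 0.48 ± 0.13, while Nfyc, a subunit of the same CCAAT-binding complex, fell by 0.30 ± 0.09 (limma adjusted p = 0.0349), a call that ended when any hTNFa or wild-type array, or replicate 3 of the arrays labelled SphK1 null, was left out. The 2 dimmer Creb1 probe sets differed by 0.30 and 0.12 and did not pass. Nfyb was not called at its brighter probe set, but its second probe set was lower in both groups. It differed by -0.62 in hTNFa joints and -0.75 in joints labelled SphK1 null (limma adjusted p = 0.00451 and 0.0013). A dimmer Nfya probe set rose by 0.88 and 1.10 (limma adjusted p = 0.0134 and 0.00356). It too passed the filter only through the transgenic arrays, with 6.85 and 6.74 in wild type. At brightest probe sets 4 rose and 0 fell in joints labelled SphK1 null, and fewer rose without wild-type replicate 1. Of 9 measured genes of interferon gamma signalling 7 rose in hTNFa joints, among them the kinase Jak2 (1.14 ± 0.11), the receptor chains Ifngr2 (0.98 ± 0.17) and Ifngr1 (0.84 ± 0.16), the transcription factor Irf1 (0.82 ± 0.13) and the feedback inhibitor Socs1 (0.80 ± 0.15; limma adjusted p = 0.00337). A dimmer Ifngr2 probe set differed by 0.29 and did not pass. In joints labelled SphK1 null 8 of 9 rose. Without wild-type replicate 1, which leaves 1 wild-type array, both counts were lower. The probe set of Ifng did not pass the filter and read 3.99 to 4.47 on all arrays.

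Of 11 measured genes that interferon gamma induces strongly, 3 rose and 2 fell in hTNFa joints, with a median of 0.15 log2. Over all genes 16.5% were called higher and 19.6% lower, so these counts are near the background. The chemokine Cxcl10 rose by 0.94 ± 0.27, the immunity-related GTPase Ifi47 by 0.73 ± 0.22 and the guanylate-binding protein Gbp2 by 0.67 ± 0.21, while the GTPases Igtp and Gbp6 fell by 0.59 ± 0.14 and 0.41 ± 0.14 (limma adjusted p = 0.0264, 0.0295, 0.0393, 0.0111 and 0.0487). A second Gbp2 probe set differed by 0.61 and did not pass. Gbp7 differed by 0.35 at its brightest probe set and did not pass, but its dimmer probe set rose by 0.70 (limma adjusted p = 0.00221). A dimmer Gbp6 probe set was lower as well, at -0.58 (limma adjusted p = 0.0303). The chemokine Cxcl9 differed by 0.15 ± 0.37 (limma adjusted p = 0.811). Ido1, also listed, did not pass the filter, at 5.13 to 5.62. This list depends on single arrays: without hTNFa replicate 2 or 3 it had 0 higher and 1 lower. Joints labelled SphK1 null had 3 higher and 4 lower, where 19.1% of all genes were called higher and 23.8% lower. Without replicate 3 of those arrays the counts were 3 and 2. Fits that keep 1 wild-type array also moved the counts. Both groups had fewer higher without wild-type replicate 1 and fewer lower without wild-type replicate 2. Without the 3 arrays that carried both Xist and Eif2s3y, hTNFa joints had more higher and fewer lower. Shares over all genes in these fits were not set beside the counts.

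MHC class II genes present peptides from outside the cell and mark professional antigen-presenting cells. Those that were called had larger differences than the loading genes at their brightest probe sets. Of 10 measured genes 6 rose in hTNFa joints and 6 in joints labelled SphK1 null, where 16.5% and 19.1% of all genes were called higher. H2-Eb2, H2-DMb2, H2-Oa and H2-Ob differed by -0.045, 0.29, -0.195 and -0.23 in hTNFa joints and did not pass. The median was 1.42 log2 in hTNFa joints, against 0.58 for the 6 peptide loading genes at their brightest probe sets. H2-Eb1 rose by 1.93 ± 0.14, H2-DMa by 1.92 ± 0.18, the invariant chain protease Ctss by 1.91 ± 0.13 and H2-Ab1 by 1.81 ± 0.09, while the largest member difference at a brightest probe set was the 1.08 of Tapbp. The difference between the lists was not tested.

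**Figure D4:**
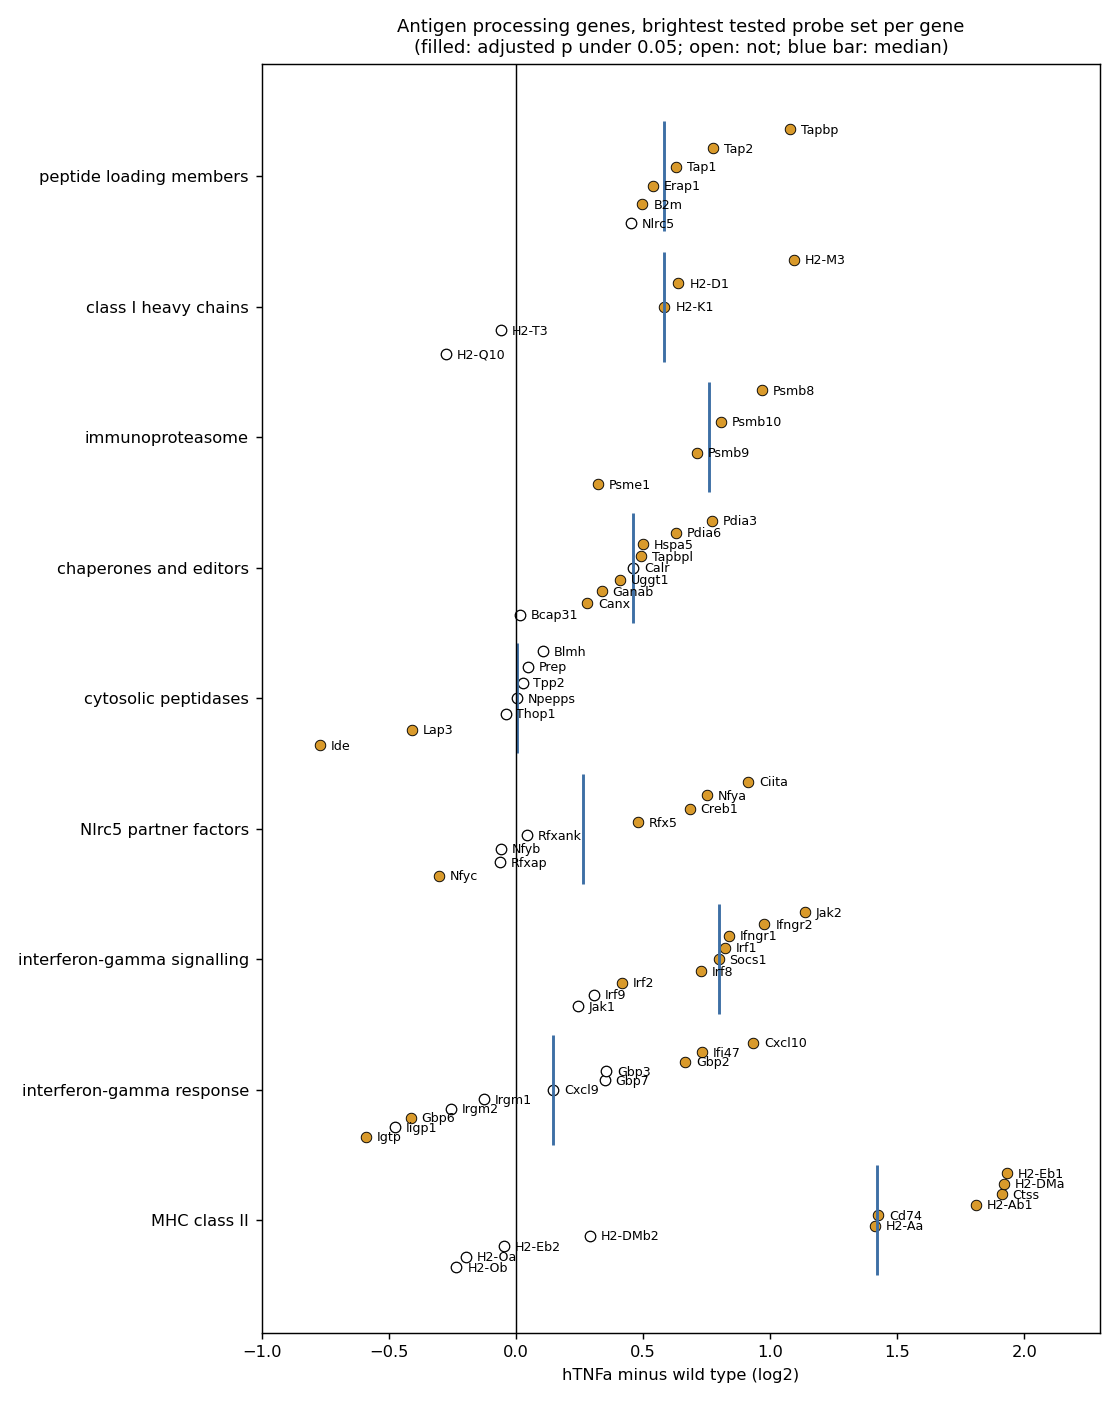
Log2 difference hTNFa minus wild type (horizontal axis) of each gene at its brightest tested probe set, by list; filled points passed an adjusted p of 0.05, open points did not, and the blue bar is the list's median. Peptide loading, class I heavy chain, immunoproteasome and chaperone genes lie mostly between 0.3 and 1.1, cytosolic peptidases around 0, and 6 class II genes above 1.4.

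Each member was set against the brightest tested probe set of every other gene by Pearson correlation over the 8 arrays, as a description only: the arrays share the split between transgenic and wild type, which by itself raises such values. B2m was most like Snx10 (r = 0.998), Slfn2 (0.997) and Inpp5d (0.995), and Tap1 most like Ttk (0.985), Tmsb10 (0.983) and Pdia6 (0.980), the last of them a gene of the chaperone list above. Tap2 stood closest to Nsf (0.998), Mcemp1 (0.996) and Slc7a7 (0.995), and Tapbp to Prkcd (0.997), Mob3a (0.996) and Sema4a (0.996). For Erap1 the nearest were Gpm6b (0.985), Csmd1 (0.984) and Mfsd14a (0.983). Nlrc5 was most like Snrpb2 (0.984), Pikfyve (0.975) and Trbv1 (0.973), none of which was called in any of the 3 comparisons. The 15 genes named for the other 5 members were called higher in both transgenic groups against wild type. Genes picked for likeness to a member tend to share its calls, so neither outcome is a result of its own. No gene appeared for more than 1 member.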

How the data were processed

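Whole ankle joint RNA was measured on single-colour Affymetrix arrays. The authors deposited 1 table of log2 values per probe set, rounded to 2 decimals. The software and methods listed per the submitters' processing notes are RMA, MAS5 and the Affymetrix Expression Console, with neither role nor version. Array medians lie between 6.84 and 6.89, so differences in total RNA cannot be seen, and the number of arrays limits the precision (median SE 0.15 log2 for hTNFa against wild type). Gene names came from GEO's platform annotation and were updated by gene identifier through a GRCm38.p6 table: 34945 had 1 gene, 932 several and 9160 none listed, and 34741 of the first matched the table.

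Groups came from the sample titles. Control probe sets were left out and the 24115 probe sets above the filter were fitted with limma 3.58.1 (R 4.3.3), 1 mean per group over all 8 arrays with an intensity trend and 5 residual degrees of freedom. Simulated data with known changes served to check it. Members, gene lists and tests were chosen with earlier results of these data known. Genes outside the members were named by rule: up to 4 per pathway list with the largest called change in hTNFa against wild type, Psmb8, Psmb9, Ciita, Ifng, Irf1, Socs1, H2-K1 and H2-D1, and the 3 genes most correlated with each member. Calr, Nfyc, Gbp6, Cxcl9, H2-Q10, H2-T3 and the neighbours of Tap1 and Tapbp were added after their values were seen. So were H2-Eb2, H2-Oa, H2-Q2, H2-T24, H2-Bl, Ido1, Lep, Pck1, Sp7 and Scx. List genes without a probe set of their own are not analysed here. Alternatives were other filters, normalization, offset, moderation, array weights, covariates, a replicate block and leaving out arrays.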

Additional observations from a re-analysis of the deposited data

How the results depend on the processing

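Among 179 values of member probe sets over 20 alternatives in each comparison, 169 kept direction and side of the threshold in hTNFa against wild type and 172 in the joints labelled SphK1 null against wild type; in the others a call was lost or gained with the same direction. Both B2m, both Tapbp and the Tap2 probe sets kept their calls throughout. The number of called member probe sets was 5 to 8 when 1 array was left out of the hTNFa comparison (all probe sets: 4695 to 9313, the lowest without wild-type replicate 1), and 6 to 8 in joints labelled SphK1 null. These ranges include fits that keep 1 wild-type array. With the replicate number as a block the number of called member probe sets was 6 and 7, since Erap1 missed the threshold in hTNFa joints (0.48, adjusted p = 0.0593). The numbers do not pair the arrays: deviations of same-numbered arrays correlated at -0.17 to 0.27. With the block the chaperone count was 3 in hTNFa joints, and the Nlrc5 partner count in joints labelled SphK1 null was 2.

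Between the transgenic groups no member was called under any alternative. Calls over all probe sets numbered 1 with the filter on all 8 arrays and 1 with array weights, 6 with quantile normalization, 0 to 3 leaving out 1 array, and 0 without the 3 arrays that carried both Xist and Eif2s3y. Uncalled differences changed sign in 13 of 179 values. Without those 3 arrays they were -0.025 for the brighter B2m, -0.05 for Tap2, -0.38 for the second Tapbp and -0.20 for the second Erap1 probe set; the second Tapbp probe set was at -0.15 with array weights. When 1 array was left out, ranges were -0.005 to 0.08 for the brighter B2m probe set, -0.038 to 0.18 for Tap1, -0.012 to 0.22 for Tap2, -0.20 to 0.23 for the second Tapbp, -0.045 to 0.33 for the second Erap1 probe set and -0.16 to 0.04 for Nlrc5. The cause of these shifts was not tested beyond the smaller number of arrays.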
